A study of Homo sapiens with 12 samples.

Results

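Extracellular vesicles of 3 cancer cell lines, Hutu80, MDST8 and Car-1 (set A), were compared with those of 3 others, HT55, SW1116 and RCM-1 (set B). The members are all 12 of the 12 libraries of the series, 6 in each set and 2 per line, and the line was the unit of the comparison (3 lines against 3). The sets were given by line name. The series states that it profiled vesicle microRNAs (miRNAs) of 3 lines of consensus molecular subtype CMS2 and 3 of CMS4, a scheme that sorts colorectal cancers by gene expression into, among others, a canonical epithelial class (CMS2) and a mesenchymal class (CMS4). The labels used here tie no line to a subtype, so the sets are called by their lines and not by a subtype. The labels call all 6 lines colorectal cancer; as background, Hutu80 was established from a tumour of the duodenum. No line was treated or edited, and the medium of all was DMEM/F12 with antibiotics and serum from fetal calves. Vesicles were concentrated by ultrafiltration and separated by size-exclusion chromatography, and their RNA was extracted with a kit for serum and plasma. Each line is a single cultured population, and the labels do not say whether its 2 libraries came from separate cultures. Unless stated otherwise, the p-values below set the difference between the sets against the spread between the lines of a set.

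A miRNA is a short RNA that guides a silencing complex to messenger RNAs, chiefly through its seed, bases 2 to 8 from the 5′ end. miRNAs with the same seed share most predicted targets, and miRNAs from one hairpin or one cluster of hairpins are usually cut from a shared transcript. In the intestine, miR-192, miR-194, miR-215 and miR-375 mark epithelial cells. The miR-200 family restrains the transcription factors ZEB1 and ZEB2, which turn epithelial cells towards a mesenchymal state and in turn repress the miR-200 loci. Vesicles carry a sample of the miRNAs of the cell that sheds them, which need not mirror the cell's own mixture. In such pooled material, fewer vesicles carrying a miRNA and fewer copies per vesicle cannot be told apart.

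The mature sequences below, from RefSeq on GRCh38.p14 and written 5′ to 3′ with the seed in capitals, are those on which the set comparison turned. The first 9 are gut epithelial and miR-200 family miRNAs, grouped by seed, which were called lower in set A or belong to the same family.
miR-192-5p: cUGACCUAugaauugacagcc
miR-215-5p: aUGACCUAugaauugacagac
miR-194-5p: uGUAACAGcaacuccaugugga
miR-375-3p: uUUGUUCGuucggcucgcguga
miR-200c-3p: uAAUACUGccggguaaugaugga
miR-200b-3p: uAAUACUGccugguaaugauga
miR-429: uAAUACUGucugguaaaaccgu
miR-200a-3p: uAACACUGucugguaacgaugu
miR-141-3p: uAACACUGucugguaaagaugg
Next come other miRNAs lower in set A, from the miR-203, GABRE and DIO3 loci, and the 2 abundant miRNAs that were also lower there.
miR-203a-3p: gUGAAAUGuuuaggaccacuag
miR-203b-3p: uUGAACUGuuaagaaccacugga
miR-224-5p: uCAAGUCAcuagugguuccguuuag
miR-452-5p: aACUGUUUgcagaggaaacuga
miR-1247-5p: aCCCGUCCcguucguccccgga
miR-10a-5p: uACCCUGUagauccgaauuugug
let-7b-5p: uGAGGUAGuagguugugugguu
The remaining sequences are from the miR-30, miR-106a-363, miR-99/100 and miR-125b miRNAs that were higher in set A, with some relatives of the same seed. Other higher members and other relatives are not printed.
miR-30a-5p: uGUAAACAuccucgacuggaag
miR-30c-5p: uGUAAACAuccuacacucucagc
miR-30e-5p: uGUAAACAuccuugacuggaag
miR-30a-3p: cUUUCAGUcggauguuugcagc
miR-30e-3p: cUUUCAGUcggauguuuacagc
miR-30c-2-3p: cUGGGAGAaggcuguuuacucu
miR-20b-5p: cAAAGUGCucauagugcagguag
miR-106a-5p: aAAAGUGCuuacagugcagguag
miR-363-3p: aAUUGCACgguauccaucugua
miR-92a-3p: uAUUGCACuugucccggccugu
miR-99a-5p: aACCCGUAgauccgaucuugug
miR-100-5p: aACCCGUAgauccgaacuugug
miR-125b-5p: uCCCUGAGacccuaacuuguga
miR-125b-2-3p: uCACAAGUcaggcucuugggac

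The deposited table held counts of 1636 mature miRNAs, of which 1223 had a count and 296 passed the filter on low counts. Those 296 hold 99.6% of the 3141138 counts. Library totals ran from 71831 to 622800, so that 1 count was worth between 1.61 and 13.9 CPM, a count scaled to a common library total. Levels below are CPM of the 2 libraries of a line added together, scaled by trimmed-mean (TMM) factors that ran from 0.682 in SW1116 to 1.40 in Car-1. The factors of the 3 set A lines (1.02 to 1.40) all exceeded those of set B (0.682 to 0.954), so the scaling itself moves with the sets.

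Of the 296 tested miRNAs, 39 differed between the sets (13.2%) at an adjusted p below 0.05 in edgeR's quasi-likelihood F-test. A total of 17 were higher in set A (5.74%) and 22 were lower (7.43%). The 22 lower ones were led by gut epithelial miRNAs, miR-203 and the pair of miR-224 and miR-452, and the 17 higher ones by miR-30a, the miR-106a-363 cluster and the miR-100/125b clusters. The 3 lines of set A lay wholly below the 3 of set B for all 22 lower miRNAs and wholly above for 16 of the 17 higher ones, the exception being miR-92a-2-5p. Over all 296, set A lay wholly above set B for 36 (12.2%) and wholly below for 45 (15.2%). With the 12 libraries kept apart, 16 miRNAs (5.41%) had every library of set A above every library of set B and 21 (7.09%) had every one below, among them 11 and 18 of the called ones.

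The counts of calls rest on single lines. Leaving out MDST8 gave 44 higher and 25 lower, and leaving out Hutu80 gave 9 and 7. Leaving out HT55 gave 0 and 8, and leaving out SW1116 gave 0 and 7. Without RCM-1 no miRNA passed, with 61 at an unadjusted p below 0.05 against 78 when all lines were used. None of the 17 higher calls held without HT55, RCM-1 or SW1116, and 7 of the 22 lower ones held without HT55 and 7 without SW1116. Of single libraries, leaving out Hutu80 replicate 2 gave 12 lower and leaving out MDST8 replicate 1 gave 14. No called miRNA changed the sign of its difference in any of these fits. The calls were chosen by that difference, and except for miR-92a-2-5p their lines did not overlap. A change of sign was thus unlikely, and its absence lends the calls no support. The calls below are those of the 6 lines together. With library totals as the only scaling, the median difference of the tested miRNAs moved from 0.08 to 0.61 on the log2 scale, and 19 were higher and 8 lower, so that the higher share of the calls went from 43.6% to 70.4%. All 17 higher calls held under that scaling. Of the 22 lower ones 8 held, namely miR-192-5p, miR-194-5p, miR-203a-3p, miR-203b-3p, miR-224-5p, miR-452-5p, miR-335-3p and miR-1247-5p. In limma-trend 8 of the 22 lower calls held as well, these without miR-452-5p and with miR-200c-3p. Of the higher ones, miR-20b-3p, miR-92a-2-5p, miR-106a-5p, miR-125b-1-3p and miR-132-5p did not pass there. DESeq2 on the same line sums called 34 higher and 27 lower.

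**Figure D1:**
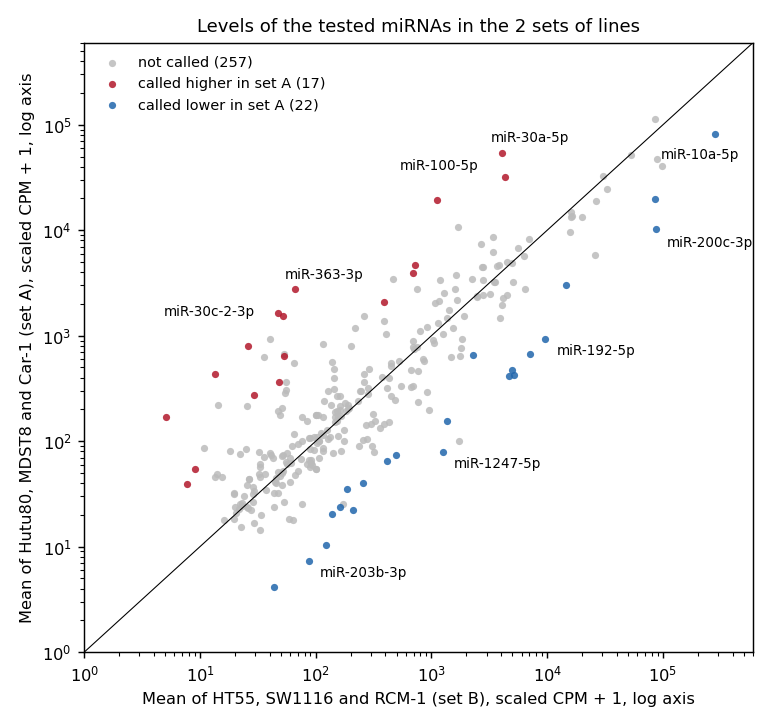
Mean scaled CPM + 1 of each of the 296 tested miRNAs in set B (horizontal, log axis) and set A (vertical, log axis), with 1 point per miRNA and the diagonal of equal levels. The 17 called higher in set A (red) sit above the diagonal and the 22 called lower (blue) below it, and miR-30a-5p, miR-200c-3p and miR-10a-5p are among the abundant ones.

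The list in which every tested member passed was that of the gut epithelial miRNAs. All 5 tested members of the list of miR-192, miR-194, miR-215 and miR-375 were lower in set A, where 7.43% of all tested miRNAs were, and their median difference was -3.38 against 0.08 over all tested miRNAs. miR-194-5p was at 462 CPM (Car-1), 463 (Hutu80) and 316 (MDST8), against 2740 (HT55), 6265 (RCM-1) and 5025 (SW1116). The lowest set B line was 5.92 times the highest set A line, the difference was -3.50 ± 0.55 (log2, SE), and the edgeR adjusted p was 0.00799. Hairpins on chromosome 1 (beside miR-215) and chromosome 11 (beside miR-192) both give miR-194-5p, so its counts cannot be assigned to one of them.

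miR-192-5p, the most abundant member, is induced by p53 and lies within an exon of MIR194-2HG (chromosome 11, 64891137 to 64891246). It stood at 1070 CPM (Car-1), 1128 (Hutu80) and 591 (MDST8), against 5189 (HT55), 14202 (RCM-1) and 9574 (SW1116). Its difference was -3.38 ± 0.60 (edgeR adjusted p = 0.00799), and all 6 libraries of set A (495 to 1305 CPM) were below all 6 of set B (4867 to 15490). miR-215-5p (chromosome 1, 220117853 to 220117962, outside annotated genes) has the same seed and differs from miR-192-5p by 2 bases. It was scarce, with 23 counts in set A and 208 in set B, and its difference was -2.85 ± 0.78 (edgeR adjusted p = 0.0423). The sum over that seed followed miR-192-5p, which made up 97.5% to 99.3% of it in each line.

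miR-375-3p, a miRNA of endocrine cells and of the gut lining (chromosome 2, 219001645 to 219001708, outside annotated genes), was at 691 CPM (Car-1), 501 (Hutu80) and 212 (MDST8). It was at 6017 CPM (HT55), 7539 (RCM-1) and 1325 (SW1116). The sets did not overlap, but SW1116 was only 1.92 times Car-1 while RCM-1 was 5.69 times SW1116. The difference was -3.41 ± 0.76 (edgeR adjusted p = 0.0219). The passenger arm miR-194-3p was also lower (-2.78 ± 0.76, edgeR adjusted p = 0.0423). With library totals, and in limma-trend, miR-375-3p, miR-194-3p and miR-215-5p did not pass, and 2 of the 5 stayed called. Together the list took 0.118% to 0.324% of the counts of a set A line and 1.11% to 2.55% of a set B line.

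**Figure D2:**
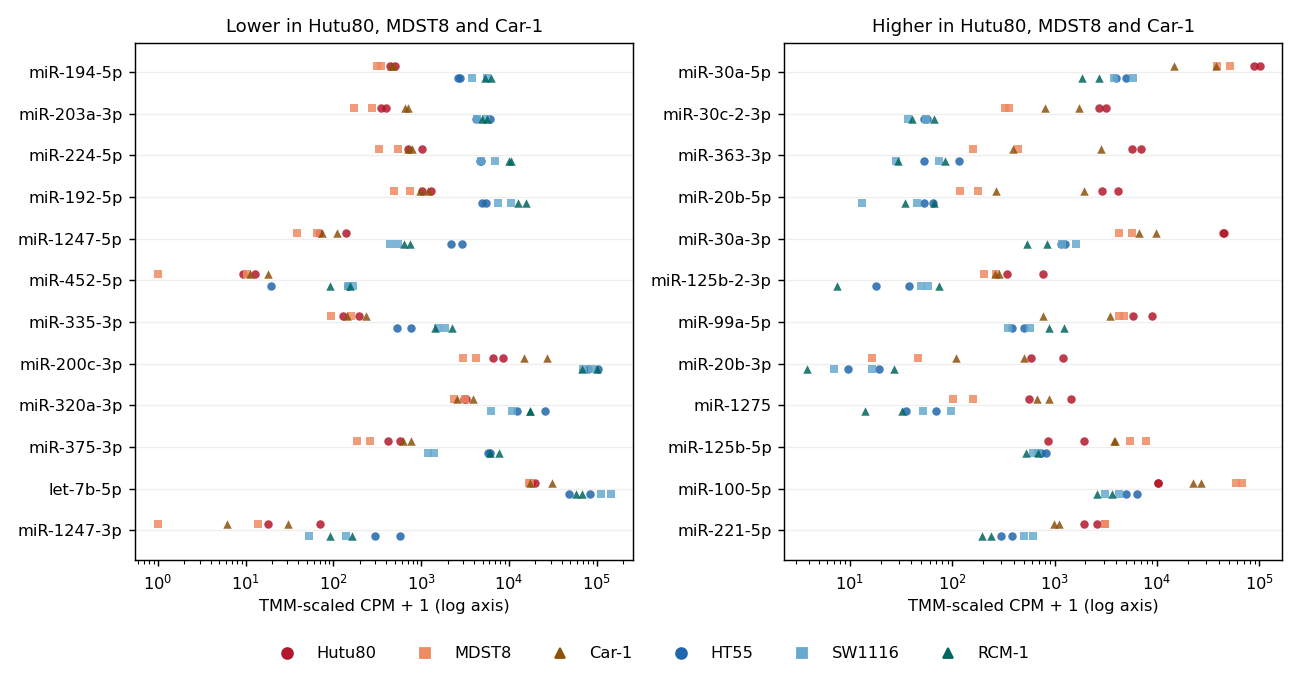
Scaled CPM + 1 (log axis) of the 12 library values of each leading miRNA, with set A lines in red, orange and brown drawn above set B lines in blue, light blue and green. For miR-194-5p, miR-203a-3p, miR-192-5p and miR-30a-5p the symbols of the sets do not overlap, while within set A the values of miR-363-3p and miR-20b-5p spread more widely than those of set B.

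In the miR-200 family, 2 of 7 tested members were lower in set A (7.43% of all tested miRNAs were) and none was higher, and 5 of 7 had all set A lines below all set B lines (15.2% of all tested miRNAs did). The median difference was -2.16. Both called members come from the chromosome 12 cluster (6963699 to 6964191, in an intron of MIR200CHG). miR-200c-3p was at 20206 CPM (Car-1), 7301 (Hutu80) and 3484 (MDST8), against 88950 (HT55), 94360 (RCM-1) and 78998 (SW1116), a difference of -3.08 ± 0.68 (edgeR adjusted p = 0.0219). The set B lines were within 1.19 times of each other, and the set A lines spread 5.80 times, Car-1 being the highest. miR-141-3p, its neighbour with the other family seed, had 47 counts in set A and 417 in set B (-2.72 ± 0.76, edgeR adjusted p = 0.0423). With library totals as the only scaling neither passed, so that 0 of 7 were called, and miR-141-3p did not pass in limma-trend either.

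The 5 members from the chromosome 1 cluster (1167104 to 1169087, outside annotated genes) had negative differences and none passed. miR-200b-3p was at 14025 CPM (Car-1), 2270 (Hutu80) and 987 (MDST8), against 37864 (HT55), 15720 (RCM-1) and 23650 (SW1116). Car-1 lay 14.2 times above MDST8 and just below RCM-1, and the difference of -2.16 ± 0.91 did not pass (edgeR adjusted p = 0.167). miR-200a-3p showed Car-1 even closer to set B, at 1991 CPM, with 178 in Hutu80 and 118 in MDST8, against 2098 (HT55), 1559 (RCM-1) and 1755 (SW1116). Car-1 thus lay inside the range of set B for miR-200a-3p, with Hutu80 and MDST8 far below (-1.24 ± 0.96, edgeR adjusted p = 0.508). By seed, the sum of miR-200c-3p, miR-200b-3p and miR-429 was lower (-2.95 ± 0.73, edgeR adjusted p = 0.0296), and that of miR-141-3p and miR-200a-3p did not pass (-1.53 ± 0.90, edgeR adjusted p = 0.326).

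The window around the start of MIR200CHG, the transcript that holds miR-200c and miR-141, is shown because both of these members were lower in set A. It is 300 bases of RefSeq sequence on GRCh38.p14, plus strand, chr12:6962995-6963294, and the capitals mark the match to CACCTG, a core motif that ZEB factors bind, searched on both strands.
MIR200CHG: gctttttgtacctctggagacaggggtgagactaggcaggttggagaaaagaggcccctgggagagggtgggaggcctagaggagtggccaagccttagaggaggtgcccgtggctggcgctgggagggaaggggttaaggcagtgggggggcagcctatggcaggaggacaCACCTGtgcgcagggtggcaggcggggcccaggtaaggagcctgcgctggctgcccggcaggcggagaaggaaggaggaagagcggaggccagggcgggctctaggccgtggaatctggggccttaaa
It holds 1 match, and 20.6% of 35116 promoter windows of the same length hold at least 1. The match is a feature of the letters only, and these data hold no measure of binding.

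In the list of squamous miRNAs 2 of 3 tested members were lower in set A (7.43% of all tested miRNAs were). miR-203a-3p, which limits the growth of surface epithelium by repressing p63 (chromosome 14, 104117405 to 104117514, outside annotated genes), was at 677 CPM (Car-1), 371 (Hutu80) and 214 (MDST8). Set B had 4951 (HT55), 5366 (RCM-1) and 5138 (SW1116), within 1.08 times of each other, so that all 3 lines sat at least 7.31 times above Car-1 (-3.61 ± 0.58, edgeR adjusted p = 0.00799). miR-203b-3p, from a hairpin on the opposite strand of the same stretch (104117418 to 104117503), was also lower (-3.86 ± 0.67, edgeR adjusted p = 0.00799) on 7 counts in set A and 129 in set B. Whether the counting used strand is not given in the sources used here. miR-205-5p, the third tested member and a basal epithelial miRNA, was at 4401 CPM in Car-1 and at 39.7 to 603 in the other 5 lines. Its difference of 2.53 ± 1.54 did not pass (edgeR adjusted p = 0.355) and became -1.85 without Car-1.

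miR-224-5p and miR-452-5p lie 1 after the other within GABRE, a subunit gene of the GABA-A receptor (chromosome X, 151958578 to 151959712, annotated as exon). miR-224-5p was at 747 CPM (Car-1), 829 (Hutu80) and 418 (MDST8), against 4808 (HT55), 10765 (RCM-1) and 5893 (SW1116) (-3.43 ± 0.58, edgeR adjusted p = 0.00799). miR-452-5p had 11 counts in set A and 212 in set B (-3.72 ± 0.73, edgeR adjusted p = 0.0144). Every line of set A was below every line of set B for both.

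Both arms of miR-1247 (chromosome 14, 101560287 to 101560422, in an exon of DIO3OS) were lower in set A. miR-1247-5p was at 88.2 CPM (Car-1), 96.4 (Hutu80) and 48.9 (MDST8), against 2491 (HT55), 756 (RCM-1) and 519 (SW1116) (-4.02 ± 0.78, edgeR adjusted p = 0.0144). HT55 stood 4.80 times above SW1116 within set B. miR-1247-3p differed by -3.39 ± 0.89 (edgeR adjusted p = 0.0357). Other miRNAs of the DIO3 region did not follow: of the 6 tested from the 14q32 list none passed, and their median difference was 0.16.

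miR-335-3p, from an intron of the imprinted gene MEST (chromosome 7, 130496111 to 130496204), was at 183, 164 and 119 CPM in Car-1, Hutu80 and MDST8 and at 624, 1758 and 1738 CPM in HT55, RCM-1 and SW1116. Its difference was -3.14 ± 0.63 (edgeR adjusted p = 0.0151). miR-320a-3p was even within set A (highest line 1.19 times the lowest), at 3172, 3147 and 2674 CPM in the same order, and stood at 17213, 18205 and 8381 CPM in HT55, RCM-1 and SW1116 (-2.28 ± 0.52, edgeR adjusted p = 0.0219). miR-584-5p (in an intron of SH3TC2) fell by 1.79 ± 0.51 on the log2 scale (edgeR adjusted p = 0.0439).

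A further 4 calls in this direction, named because they passed, had few counts in set A. They were miR-184, miR-95-3p, miR-2110 and miR-196a-1-3p, with 46, 63, 33 and 3 counts in set A against 316, 734, 219 and 66 in set B. No fold is given for miR-196a-1-3p, since 3 counts do not fix one.

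The abundant miRNAs miR-10a-5p and let-7b-5p were also among those lower in set A. The hairpin of miR-10a-5p lies within an intron of HOXB3 and overlaps an annotated exon of HOXB4 (chromosome 17, 48579838 to 48579947). miR-10a-5p was at 65406 CPM (Car-1), 88984 (Hutu80) and 89698 (MDST8). In set B it was at 183442 CPM (HT55), 257564 (RCM-1) and 407055 (SW1116), with every line above set A (-1.80 ± 0.50, edgeR adjusted p = 0.0423). The call did not pass with RLE size factors, with library totals or in limma-trend. let-7b-5p, of the let-7 family that represses RAS and other growth genes (chromosome 22, 46113686 to 46113768, in an exon of MIRLET7BHG), was at 23584 CPM (Car-1), 18764 (Hutu80) and 16584 (MDST8). It reached 62090 CPM (HT55), 64617 (RCM-1) and 129252 (SW1116) (-2.12 ± 0.51, edgeR adjusted p = 0.0248). Its call did not pass with library totals, in limma-trend or when Hutu80, HT55, RCM-1 or SW1116 was left out.

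Few relatives of these 2 miRNAs passed. Of 7 tested let-7 members, let-7b-5p was the only one to pass, and the median of the list was -0.14. let-7a-5p had every set A line below set B without passing (-0.91 ± 0.47, edgeR adjusted p = 0.255), and let-7i-5p every line above (1.33 ± 0.58, edgeR adjusted p = 0.172), with MDST8 highest at 15402 CPM. Of the 6 tested miRNAs on the list of HOX-embedded miR-10, miR-196 and miR-615, 1 was lower and none higher, with a median of -1.14. That list does not hold miR-196a-1-3p, given above, whose hairpin lies in an intron of HOXB7. miR-196b-5p (-1.65 ± 0.63) and miR-196a-5p (-1.25 ± 0.53) also had set A wholly below set B and did not pass (edgeR adjusted p = 0.121 and 0.162). The rest of that list did not pass either: miR-10a-3p (-1.04 ± 0.67), miR-10b-5p (0.26 ± 0.74) and miR-615-3p (0.99 ± 0.76) (edgeR adjusted p = 0.393, 0.936 and 0.508).

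Among the miRNAs higher in set A, miR-30a stood out by abundance. miR-30a-5p, reported to restrain SNAI1 and autophagy genes, comes from chromosome 6, 71403551 to 71403621, in an intron of LINC00472. It was at 27041 CPM (Car-1), 92945 (Hutu80) and 43047 (MDST8), against 4735 (HT55), 2210 (RCM-1) and 5139 (SW1116). The lowest set A line was 5.26 times the highest set B line (3.75 ± 0.66, edgeR adjusted p = 0.00799). Its passenger arm miR-30a-3p was at 8408, 44251 and 4747 CPM in Car-1, Hutu80 and MDST8 and at 1251, 659 and 1462 in HT55, RCM-1 and SW1116 (4.09 ± 0.90, edgeR adjusted p = 0.0219).

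miR-30c-2-3p, from the hairpin that neighbours miR-30a in the same host (71376960 to 71377031), was at 1304 CPM (Car-1), 2949 (Hutu80) and 330 (MDST8). It was at 54.8 CPM (HT55), 49.6 (RCM-1) and 48.5 (SW1116). Set B was even, within 1.13 times, and Hutu80 stood 8.94 times above MDST8 within set A (4.90 ± 0.86, edgeR adjusted p = 0.00799). miR-30d-3p was also higher, on 136 counts in set A and 8 in set B (5.11 ± 1.29, edgeR adjusted p = 0.0335).

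In all, 4 of 9 tested members of the miR-30 family were higher and none was lower, where 5.74% of all tested miRNAs were higher, and 6 of the 9 had set A wholly above set B (12.2% of all tested miRNAs did). Of the others, miR-30c-5p, which the neighbouring hairpin and 1 on chromosome 1 both give (1.21 ± 0.53), miR-30e-5p (0.98 ± 0.51) and miR-30e-3p (1.51 ± 0.55) did not pass (edgeR adjusted p = 0.170, 0.255 and 0.108). miR-30d-5p, an abundant member, had set A wholly below set B by a small gap (-0.50 ± 0.48, edgeR adjusted p = 0.630), and its difference was 0.03 with library totals as the only scaling.

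Among the miR-30 members with a sequence in the reference table, the make-up of a shared seed differed between the sets too. Of the sum of miR-30a-5p, miR-30c-5p and miR-30e-5p, miR-30a-5p made up 87.6% (Car-1), 90.5% (Hutu80) and 89.0% (MDST8), against 62.3% (HT55), 45.3% (RCM-1) and 61.9% (SW1116). That sum was higher in set A (3.08 ± 0.64, edgeR adjusted p = 0.0161). The family members miR-30d-5p and miR-30b-5p had no sequence in the reference table and were left out of it. miR-30d-5p was at 11425 to 24076 CPM in set A lines and at 25961 to 27746 in set B lines. In each set B line it was more abundant than miR-30a-5p. A sum with these members was not tested, and the percentages above are not shares of the whole family. miR-30a-3p and miR-30e-3p differ by 1 base, so counts could have been split between them, and their sum was higher too (3.15 ± 0.77, edgeR adjusted p = 0.0296).

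**Figure D3:**
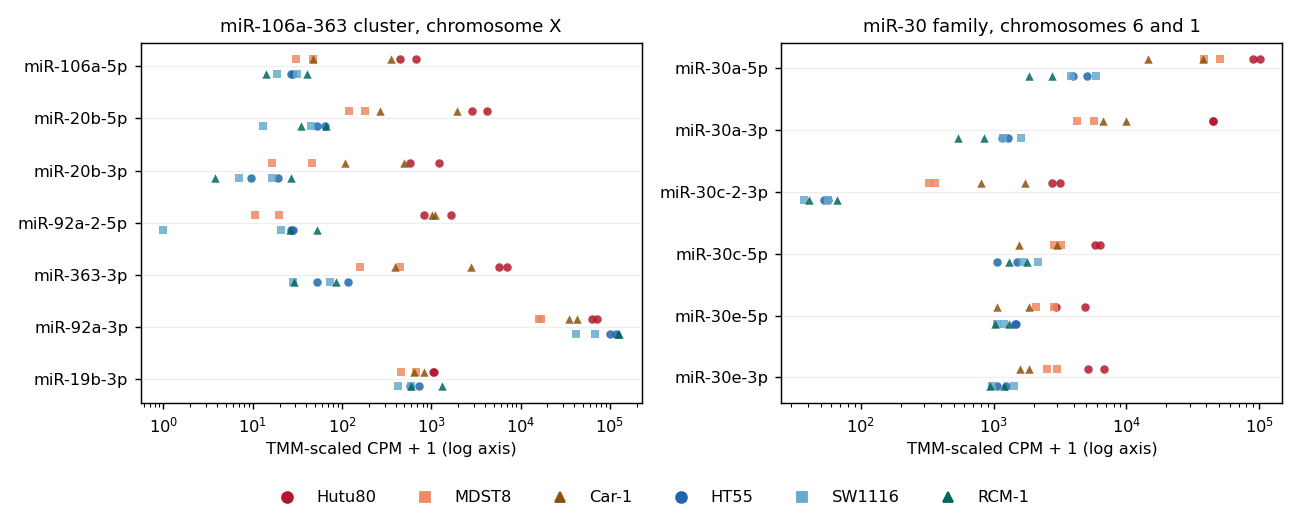
Scaled CPM + 1 (log axis) in the 12 libraries for tested miRNAs of the miR-106a-363 cluster (left) and of the miR-30 family (right), with 1 symbol per library. On the left MDST8 sits near set B for several members while Hutu80 and Car-1 sit far to the right, and on the right miR-30a and miR-30c-2-3p separate the sets more than miR-30c-5p or miR-30e.

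The miR-106a-363 cluster, a paralog of the miR-17-92 oncogenic cluster (chromosome X, 134169378 to 134170278), had 5 of 7 tested members higher in set A (5.74% of all tested miRNAs were). miR-363-3p was at 1710 CPM (Car-1), 6404 (Hutu80) and 286 (MDST8), against 94.4 (HT55), 47.5 (RCM-1) and 55.1 (SW1116) (5.42 ± 1.09, edgeR adjusted p = 0.0177). miR-20b-5p was at 1174 CPM (Car-1), 3600 (Hutu80) and 142 (MDST8), against 60.9, 45.4 and 31.5 CPM in HT55, RCM-1 and SW1116 (5.16 ± 1.10, edgeR adjusted p = 0.0219). Both were highest in Hutu80 and lowest, within set A, in MDST8, which stood 22.4 and 25.3 times below Hutu80. In limma-voom with the line as a correlated block neither passed (adjusted p = 0.0707 and 0.103), and with the replicate block added miR-363-3p passed (adjusted p = 0.0317) and miR-20b-5p did not (0.0715).

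The other arm, miR-20b-3p, was higher as well (5.09 ± 1.17, edgeR adjusted p = 0.0248). miR-106a-5p and miR-92a-2-5p passed with MDST8 at the level of set B. For miR-106a-5p MDST8 had 36.7 CPM, close to RCM-1 with 33.0 (3.26 ± 0.93, edgeR adjusted p = 0.0465). miR-92a-2-5p was at 1063 CPM in Car-1 and 1301 in Hutu80, but at 13.7 in MDST8, inside the set B range of 11.8 to 35.1 (5.00 ± 1.35, edgeR adjusted p = 0.0423). For these 2, chosen after their values were seen, the set difference is that of Hutu80 and Car-1 from the other 4 lines.

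The other two tested miRNAs of the cluster can also come from the chromosome 13 cluster. One of them, miR-92a-3p, was not higher in set A (-1.27 ± 0.61, edgeR adjusted p = 0.224), at 39031 CPM (Car-1), 66991 (Hutu80) and 16094 (MDST8) against 108447 (HT55), 131165 (RCM-1) and 54476 (SW1116). The list of the miR-17-92 cluster and its paralogs leaves out miR-20b-3p and miR-92a-2-5p, given above, and miR-92a-1-5p, which was not called. Across the 17 tested miRNAs of that list, 3 were higher (against 5.74% of all tested miRNAs), none was lower (against 7.43%), and the median was -0.04. The 3 were miR-363-3p, miR-20b-5p and miR-106a-5p.

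The sums over their seeds did not pass. miR-20b-5p made up 29.8% of its seed sum (Hutu80), 15.0% (Car-1) and 2.02% (MDST8), against 0.492% to 0.808% in set B. The sum itself, over 6 miRNAs, had a difference near 0 (0.24 ± 0.49, edgeR adjusted p = 0.848). miR-363-3p made up 7.39% of its seed sum (Hutu80), 3.07% (Car-1) and 0.804% (MDST8), against 0.0297% to 0.0763% in set B, and that sum had a difference of -1.08 ± 0.55 (edgeR adjusted p = 0.232).

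The paralogous clusters that hold miR-100 or miR-99a beside a let-7 and a miR-125b hairpin had 5 of 6 tested members of their list higher in set A (5.74% of all tested miRNAs were) and none lower, with all set A lines above set B for 5 of 6 (12.2% of all tested miRNAs). The median difference of the list was 2.78. The list leaves out let-7a-5p, which hairpins elsewhere also give and which, as said above, was not called. miR-100-5p, which targets mTOR and lies within an intron of MIR100HG (chromosome 11, 122152229 to 122152308), was at 24684 CPM (Car-1), 10182 (Hutu80) and 61394 (MDST8). It was at 6002 CPM (HT55), 3036 (RCM-1) and 3857 (SW1116) (2.90 ± 0.70, edgeR adjusted p = 0.0255). Here MDST8 was the highest line and Hutu80 the lowest of set A, the reverse of their order in the miR-106a-363 cluster.

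miR-125b-5p, from chromosomes 11 (122099757 to 122099844) and 21 (16590253 to 16590311), was at 3828 CPM (Car-1), 1470 (Hutu80) and 6410 (MDST8), against 807 (HT55), 605 (RCM-1) and 662 (SW1116) (2.50 ± 0.61, edgeR adjusted p = 0.0248). Passenger arms show both hairpins apart. The arm of the chromosome 21 hairpin, miR-125b-2-3p, was at 271, 578 and 229 CPM in Car-1, Hutu80 and MDST8 and at 30.4, 55.8 and 55.1 in HT55, RCM-1 and SW1116 (2.91 ± 0.67, edgeR adjusted p = 0.0219). The arm of the chromosome 11 hairpin, miR-125b-1-3p, had 76 counts in set A and 10 in set B (2.85 ± 0.80, edgeR adjusted p = 0.0423).

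miR-99a-5p (chromosome 21, 16539089 to 16539169, in an intron of MIR99AHG) was at 2260 CPM (Car-1), 7503 (Hutu80) and 4348 (MDST8), against 469 (HT55), 1186 (RCM-1) and 492 (SW1116) (2.72 ± 0.64, edgeR adjusted p = 0.0245). The lines of the sets did not overlap, while the libraries did: 1 Car-1 library was at 769 CPM and 1 RCM-1 library at 1240. miR-99a-5p and miR-100-5p differ by 1 base, so counts could have been split between them, and the sum over their seed, which also holds miR-99b-5p, was higher (2.69 ± 0.72, edgeR adjusted p = 0.0397). let-7c-5p, whose hairpin neighbours miR-99a in the same intron, did not pass (0.31 ± 0.59, edgeR adjusted p = 0.871), at 1965, 7691 and 4121 CPM in Car-1, Hutu80 and MDST8 and 2326, 4050 and 4760 in HT55, RCM-1 and SW1116. Its difference was -0.30 without Hutu80 and -0.06 without HT55. The sum of miR-125b-5p and its seed partner did not pass (1.70 ± 0.76, edgeR adjusted p = 0.179), and in SW1116 miR-125b-5p made up 23.5% of it, against 66.6% to 81.6% in the other 5 lines.

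miR-221-5p, the passenger arm of a miRNA that represses the cell cycle inhibitor p27, was at 1046 CPM (Car-1), 2294 (Hutu80) and 2983 (MDST8), against 362, 219 and 583 CPM in HT55, RCM-1 and SW1116 (2.44 ± 0.62, edgeR adjusted p = 0.0302). The other 3 tested arms of miR-221 and miR-222 had differences between -0.40 and 0.41 and did not pass. miR-1275 was at 759, 1055 and 125 CPM in Car-1, Hutu80 and MDST8 and at 57.9, 26.9 and 72.1 in HT55, RCM-1 and SW1116 (3.61 ± 0.86, edgeR adjusted p = 0.0248). miR-132-5p also passed (2.42 ± 0.69, edgeR adjusted p = 0.0439) on 54 and 12 counts, and was named after its values were seen. It passed in 9 of the 24 alternative fits that tested it, and in none that left out a line.

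The miRNAs miR-146a-5p, miR-31-5p, miR-34a-5p and miR-21-5p had their highest level in MDST8, and their set differences did not pass. miR-146a-5p, which NF-kB induces, was at 2434 CPM (Car-1), 1952 (Hutu80) and 27907 (MDST8), against 2610, 1167 and 1266 CPM in HT55, RCM-1 and SW1116 (2.68 ± 1.01, edgeR adjusted p = 0.125). The other tested members of its NF-kB list did not share this. miR-155-5p was lowest of all lines in MDST8 (4558 CPM), and miR-146b-5p was highest in Hutu80 (1065 CPM, with 837 in MDST8). miR-31-5p, often raised in colorectal tumours, was at 237, 564 and 1588 CPM in Car-1, Hutu80 and MDST8 and at 158, 233 and 207 in HT55, RCM-1 and SW1116 (2.00 ± 0.74, edgeR adjusted p = 0.112). miR-34a-5p, a p53 target, was at 350, 540 and 2621 CPM and at 247, 184 and 223 CPM in the same order (2.43 ± 0.80, edgeR adjusted p = 0.0745). The sets of lines did not overlap for miR-31-5p and miR-34a-5p, but Car-1 lay within 1.01 and 1.42 times of the nearest set B line. miR-21-5p, raised in many tumours, overlapped between the sets, at 58428 to 175834 CPM in set A and 44649 to 139025 in set B (0.42 ± 0.59, edgeR adjusted p = 0.803, and -0.12 without MDST8).

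**Figure D4:**
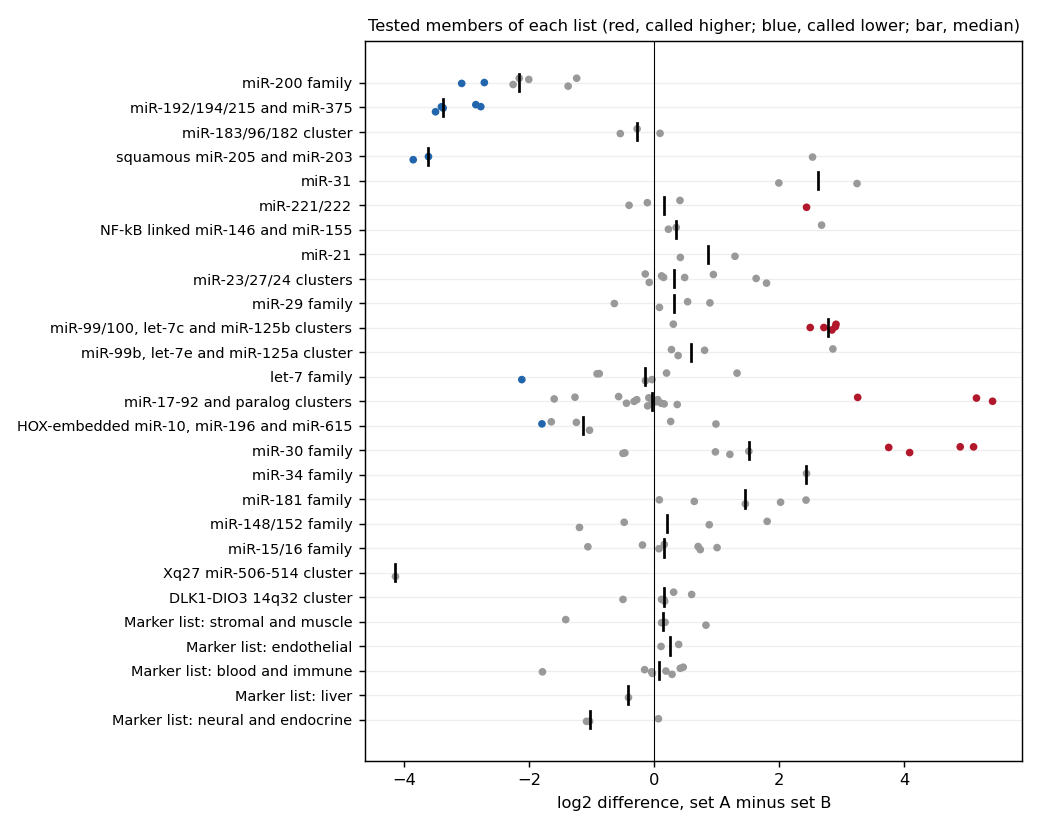
log2 difference of set A minus set B for each tested member of 27 lists (1 point per miRNA, red called higher, blue called lower, grey not called) with the median of each list as a bar. The points of the gut epithelial list lie left of -2, the list of miR-99 and miR-100 has 5 red points, and the points of the marker lists lie between -1.79 and 0.83.

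In the other lists no member passed. The cluster of miR-183, miR-96 and miR-182, a further epithelial group, had a median of -0.27 over 3 tested members. It took 3.19% to 6.37% of the counts of a set A line and 2.25% to 4.75% of a set B line. The 8 tested members of the miR-23/27/24 clusters had a median of 0.32, the 4 of the collagen-targeting miR-29 family 0.31, the 5 of the miR-181 family 1.46, the 7 of the miR-15/16 family 0.16 and the 4 of the family of miR-148 and miR-152 0.20. The only tested member of the Xq27 cluster, miR-509-3p, was at 4863 CPM in HT55 and at 59.6 to 291 in the other 5 lines (-4.15 ± 1.34, edgeR adjusted p = 0.0745), so its large difference is that of 1 line.

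Markers of other cell types did not pass. Of the tested stromal and muscle (4), endothelial (2), blood and immune (8), liver (1) and neural and endocrine (3) miRNAs, none was called, and their differences lay between -1.79 and 0.83. miR-143-3p, a miRNA of smooth muscle and fibroblasts, had all set A lines above set B by a narrow gap (0.83 ± 0.58, edgeR adjusted p = 0.460), and miR-7-5p all below (-1.03 ± 0.48, edgeR adjusted p = 0.202). The stromal and muscle list summed to 0.0368% to 0.0976% of counts in set A lines and 0.0281% to 0.0888% in set B lines. The endothelial list summed to 0.0264% to 0.0583% and 0.0173% to 0.0402%, and the blood and immune list to 0.201% to 0.611% and 0.148% to 0.554%. The liver list summed to at most 0.00869% in any line, with miR-122-3p at 0 in all of them, and the neural and endocrine list to 0.259% to 0.437% and 0.289% to 0.481%. The medium held serum, which can bring its own miRNAs, and the part of these lists in the set differences was not tested.

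Seed sums were tested for 267 of the 296 miRNAs, those with a sequence in the reference table. Of 214 seeds, 25 differed (11.7%), 9 higher (4.21%) and 16 lower (7.48%) in set A. Of these, 20 held a single tested miRNA, so they repeat its result. Both arms of a hairpin were tested in 56 cases, and their differences had the same sign in 35 (62.5%). In 4 hairpins both arms passed, and each pair had 1 sign: miR-194, miR-1247, miR-20b and miR-30a. In miR-30d and miR-221 the passenger arm was called higher and the guide arm was not called. The -5p arm was called higher in miR-132 and lower in let-7b and miR-10a, each with its -3p arm not called.

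Likeness between lines varied more within set A than within set B. Across the 296 miRNAs, which are not independent replicates, Spearman correlations between lines ran from 0.774 to 0.907 within set A (3 pairs), from 0.896 to 0.923 within set B (3 pairs) and from 0.707 to 0.828 between the sets (9 pairs). The highest pair within set A was Car-1 with Hutu80, and both pairs with MDST8 were at or below 0.778, inside the range between the sets. Among the 17 miRNAs called higher, the highest set A line was a median of 8.43 times the lowest, against 2.10 times within set B. Among the 22 called lower the ratios were 2.10 and 2.39. These correlations and ratios are descriptions with no test.

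The spread of each miRNA over the 12 libraries was split into a part between sets, a part between lines of a set and a part between libraries of a line. Over all tested miRNAs the median parts were 17.6% between sets, 47.5% between lines of a set and 15.9% between libraries. These are shares of sums of squares that rest on unlike numbers of independent contrasts, fewest between the sets. Their sizes are thus not directly comparable. Over the 39 called ones, which were chosen by the same difference, they were 73.6%, 17.6% and 5.94%. If libraries are taken as the unit, with 1 mean per line, 154 of 318 miRNAs (48.4%) passed in edgeR, 83 higher (26.1%) and 71 lower (22.3%), in a fit whose error is the spread between libraries of a line.

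**Figure D5:**
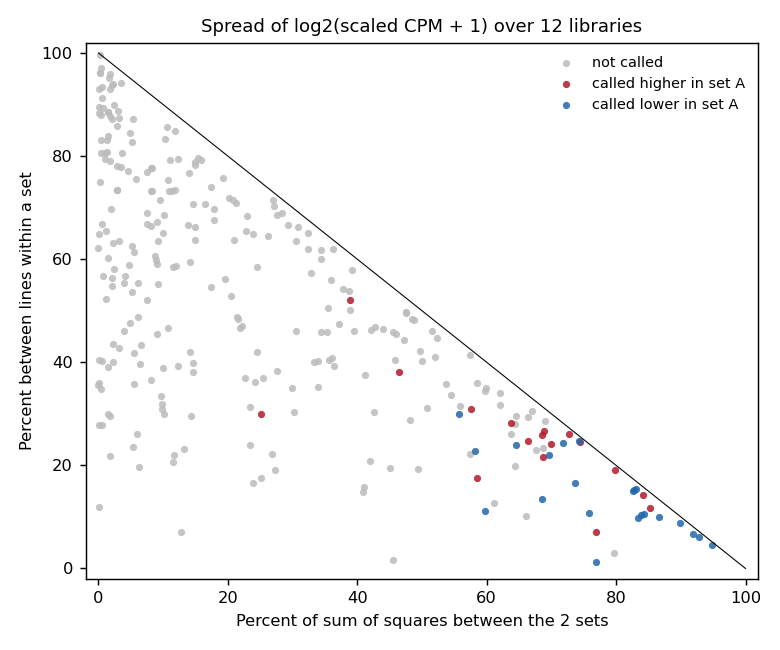
Percent of the sum of squares of log2(scaled CPM + 1) that lies between the sets (horizontal) and between lines within a set (vertical), with 1 point per tested miRNA; the distance to the diagonal is the part between libraries of a line. Called miRNAs sit towards the right, and most of the others lie at the upper left, where lines of the same set differ.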

How the data were processed

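miRNAs of vesicles from 6 cell lines, 2 libraries each, were profiled with IsoSeek, a low-input small RNA protocol that adds unique molecular identifiers (UMIs), per the labels' protocols. Per the submitters' processing notes the build was hg38. The read aligner, counter, annotation of miRNAs and any collapse of UMIs are, in the sources used here, not given, and reads of a library may then not be independent molecules. The authors deposited raw counts, whole numbers per mature miRNA and library. A second table deposited by the authors holds log2 values, equal to log2(CPM + 1) of those counts, and was used for 1 alternative.

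Lines were assigned to the sets by name, from the labels, and the members and lists were chosen with earlier results of these data known. Counts of the 2 libraries of a line were added. The filter was edgeR's filterByExpr with the set as group, and scaling was by TMM. The main test was edgeR 4.0.16's quasi-likelihood F-test (robust glmQLFit) in R 4.3.3 on 6 line sums, with Benjamini-Hochberg adjustment over all tested miRNAs and a threshold of 0.05. The biological coefficient of variation was 0.614. A difference is set A minus set B on the log2 scale, and the SE was derived from that difference and F. Levels are scaled CPM of line sums, so a ratio of levels can differ from the fitted difference. With 1 count worth up to 13.9 CPM, miRNAs below that level were not resolved in the shallowest library. Seed sums used the same procedure. Mature sequences and loci are from RefSeq on GRCh38.p14, with host genes from the GENCODE annotation of GRCh38. The procedure was also run on data simulated from its own model, with the same expected level in all lines of a set. That run does not check the model against these lines.

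The text names, per direction, up to 12 miRNAs with an adjusted p below 0.05 and at least 100 CPM in the higher set, up to 12 others whose libraries did not overlap, up to 6 members per list by level, and the 10 with the largest share of counts. Members with differences near 0 are given by count and range only. Alternatives were RLE size factors, library totals, no filter, a filter of 100 CPM in 3 lines, DESeq2 1.42.0, limma 3.58.1 (trend on the deposited log2 values, voom with the line as a correlated block, with and without the replicate number), the 12 libraries as the unit, a table without the 10 most abundant miRNAs, and fits without each line or library.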

Additional observations from a re-analysis of the deposited data

How the results depend on the processing

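The comparison has 3 lines per set, and its calls depend on that number: leaving out a line left 0 to 44 higher and 0 to 25 lower miRNAs, and 0 to 35 higher and 0 to 22 lower seed families. With RCM-1 left out none passed (61 miRNAs and 50 seed families had an unadjusted p below 0.05), and with HT55 left out no miRNA or seed family was higher (75 and 59 at an unadjusted p below 0.05). Leaving out SW1116 also left 0 higher miRNAs (69 at an unadjusted p below 0.05). Leaving out a library left 12 to 18 higher and 12 to 23 lower miRNAs, and 6 to 12 higher and 13 to 18 lower seed families, with the lowest miRNA counts (12 and 12) without Hutu80 replicate 2 and 14 lower without MDST8 replicate 1. None of the 39 called miRNAs changed sign or was called in the opposite direction in any fit in which it was tested, which their choice by that difference made unlikely. miR-194-5p, miR-203a-3p, miR-224-5p, miR-192-5p and miR-1247-5p lost their calls in 1 fit each, that without RCM-1 (adjusted p = 0.0574).

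Counts of miRNAs that moved by over 1.5 times were, for higher and lower, 42 higher with no filter (with 32 lower), 34 higher with DESeq2, 83 and 71 with the 12 libraries as the unit, 11 higher with the filter of 100 CPM in 3 lines, 8 lower with library totals and 8 lower in limma-trend. For seed families they were 19 higher and 10 lower with library totals, 30 and 28 with no filter, 30 and 25 with DESeq2, and 56 and 52 with the 12 libraries as the unit. The seed sums were not fitted in limma-trend or without the 10 most abundant miRNAs. The cause was not tested. The voom fit with the line as a correlated block called 14 higher and 20 lower, and adding the replicate block gave 15 and 21 (10 and 16 for seed families, against 11 and 15 without it). For same-numbered libraries of different lines, correlations of their deviations ran from -0.22 to 0.28 over 15 pairs of lines, with a median of 0.03. Whether the numbers pair libraries of different lines was not tested.

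Of the differences named in the report that changed sign, miR-30d-5p was 0.0303 with library totals, miR-205-5p ran from -1.85 (without Car-1) to 3.80 (without SW1116) when a line was left out, let-7c-5p from -0.30 (without Hutu80, and -0.06 without HT55) to 0.60 (without Car-1), and miR-21-5p from -0.12 (without MDST8) to 1.01 (without SW1116). None of these passed. Depth limits the scarce miRNAs: 3 counts equal 3.93 scaled CPM in SW1116 and 14.5 in Hutu80.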

Other observations

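Some miRNAs separated every library of set A from every library of set B without passing the adjusted threshold. miR-181a-3p, the passenger arm of a miRNA that tunes T cell and differentiation signalling, was at 118 CPM (Car-1), 198 (Hutu80) and 536 (MDST8), against 76.1 (HT55), 37.2 (RCM-1) and 45.9 (SW1116) (2.43 ± 0.74, edgeR adjusted p = 0.0548). Its guide strand miR-181a-5p overlapped between the sets, since Car-1 (2921 CPM) and Hutu80 (2997) lay within the range of set B (2419 to 3102) and MDST8 was at 16173. miR-423-5p was even within both sets, at 1266 to 1715 CPM in set A and 3731 to 3982 in set B (-1.42 ± 0.45, edgeR adjusted p = 0.0670).

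miR-140-3p, from an intron of the ubiquitin ligase gene WWP2 (chromosome 16, 69933081 to 69933180), was at 759, 916 and 1430 CPM in Car-1, Hutu80 and MDST8 and at 585, 401 and 221.6 in HT55, RCM-1 and SW1116 (1.36 ± 0.59, edgeR adjusted p = 0.170). miR-1306-3p, from an exon of DGCR8, whose protein is part of the complex that cuts miRNA hairpins from their transcripts, was at 204, 246 and 73.3 CPM in set A and 48.7, 49.6 and 45.9 in set B in the same order (1.85 ± 0.65, edgeR adjusted p = 0.0915). Its 3 set B lines were within 1.08 times of each other. The same held for miR-30e-3p (1.18 times) and miR-203a-3p (1.08 times), while the corresponding set A lines spread 3.35, 3.36 and 3.17 times. miR-99b-3p had set A lines at 749, 1436 and 315 CPM and set B lines at 79.2, 22.7 and 239 (2.86 ± 0.93, edgeR adjusted p = 0.0745), while its guide strand miR-99b-5p differed by 0.81 ± 0.78 (edgeR adjusted p = 0.634).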
